A study of Mus musculus with 24 samples.

Results

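The genes described here are 36 neuronal and synaptic genes known as targets of the repressor REST, followed across ESCs, NPs and TET TKO ESCs. They were taken by symbol from the tables of counts per gene, and all 36 were found among the 51912 genes of these tables, each with 1 gene identifier. The study measured DNA methylation around transcription factor motifs in mouse cells. RNA-seq libraries made up 9 of the 24 samples, with 3 of each cell type. The ESCs are wild type TC-1 cells of the strain C57BL/6 X 129S5. NPs are neuronal progenitors made from such wild type ESCs of the same strain by growth as aggregates and treatment with retinoic acid. The TET TKO ESCs lack TET1, TET2 and TET3, the enzymes that oxidise methylated cytosine, by triple knockout, and are of the strain C57BL/6 X 129/sv, so that knockout, strain and cell line cannot be told apart in a comparison with ESCs. The libraries held 20570050 to 23976914 counts in ESCs, 20519702 to 22132988 in NPs and 80704741 to 93210102 in TET TKO ESCs. The replicates are described as biological replicates, without a statement on separate cultures, so p-values measure the spread between these libraries. Levels are given as RPKM (reads per kilobase of exon, scaled to library size), so that they can be compared between genes.

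REST binds a DNA element called RE1 and recruits the corepressors RCOR1 and SIN3A with histone deacetylases and the demethylase KDM1A, which keep neuronal genes low in cells that are not neurons. Its level is known to fall as pluripotent cells become neural progenitors and then neurons, and the splicing factor SRRM4 also lowers its activity by producing a truncated form. The 36 genes encode proteins of synaptic vesicle release, dense core vesicles, ion channels and receptors, adhesion, the neuronal cytoskeleton, and scaffold and RNA-binding proteins, and are described in this order.

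The letters of the RE1 element, which REST binds, are described first. The left part TTCAGCACC, any 2 bases and the right part GGACAG were read on both strands in the 20001 bases centred on each gene's annotated start. They were found exactly at 8 of the 36 members (22.2%), against 0.214% of the 51789 windows of all genes and 0.303% of those tested in NPs and ESCs. Of the 38 other neuronal genes looked up below, 5 (13.2%) held them. With 1 of the 15 letters allowed to differ, 16 members (44.4%), 26.3% of the other neuronal genes and 1.08% of all windows held a match. The members had been picked as REST targets, so these shares describe the choice of genes, and a match shows letters and not binding. The exact matches are shown for 7 members, read from the mouse genome GRCm38 in the 5′ to 3′ direction of the element, with both parts of RE1 in capitals and 5 flanking bases on each side:
Stmn2: gccatTTCAGCACCacGGACAGcgctt
Grin1: tacgcTTCAGCACCtcGGACAGcaccc
Chga: gaggaTTCAGCACCtcGGACAGcacca
Chgb: gggatTTCAGCACCccGGACAGctcct
Snap25: gacctTTCAGCACCgcGGACAGcgatc
Chrnb2: gcggcTTCAGCACCacGGACAGcgctc
Bdnf: gtccaTTCAGCACCttGGACAGagcca

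The element of Stmn2 lay at chr3:8508230-8508246 on the plus strand, 1130 bases upstream of the gene. Those of Chga (chr12:102555238-102555254, plus strand), Chgb (chr2:132781794-132781810, plus strand) and Snap25 (chr2:136714338-136714354, plus strand) lay in introns, 269, 516 and 885 bases downstream of the start. Those of Grin1 (chr2:25319018-25319034, minus strand) and Chrnb2 (chr3:89764458-89764474, minus strand) lay in a 5′ UTR exon, 153 and 158 bases downstream. That of Bdnf (chr2:109676045-109676061, plus strand) lay in an untranslated exon 1345 bases downstream. Syt4 also held an exact match, 217 bases downstream of its start. Among the 8 members with the exact letters, 3 were called higher and 2 lower in NPs, 2 were tested and not called, and 1 was not tested. Of the 8 with 1 different letter, 2 were called higher and 0 lower, and of the 20 with no match 10 and 0, against 12.4% and 9.98% of all genes tested.

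For 3 of the 8 members with a match that differed in 1 letter, the differing letter is in lower case among the capitals:
Syn1: tcggaTTCAGCACCgcGGtCAGagcct
Syp: cgcgcTcCAGCACCgtGGACAGagccc
Gria2: tcgatTTtAGCACCgcGGACAGcgctt

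The match of Syn1 lay at chrX:20921134-20921150 (minus strand), 146 bases upstream of the start, and that of Gria2 at chr3:80802989-80803005 (plus strand), 170 bases upstream. The match of Syp lay at chrX:7638737-7638753 (plus strand) in a coding exon, 266 bases downstream of the start. The other 5 genes of this kind were Vgf, Tubb3, Elavl3, Celsr3 and Ina. No match was found in the windows of the other 20 members, Dcx, Scg3 and Cplx2 among them, which says only that these letters are not in those windows.

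The labels of the libraries were checked on the Tet genes and on markers. Tet1 was at 65.9, 60.8 and 68.5 RPKM in ESCs 1, 2 and 3 and at 13.2, 16.1 and 11.3 RPKM in TET TKO ESCs. Tet2 was at 20.5, 20.3 and 16.1 RPKM in ESCs and at 2.42, 2.70 and 2.32 RPKM in TET TKO ESCs. Both were lower in every TET TKO library than in any ESC library. Tet3 was low in both, with 0.746, 0.631 and 0.770 RPKM in ESCs and 0.561, 0.617 and 0.474 RPKM in TET TKO ESCs. Reads were counted over all exons, so those that remained say nothing about the deleted part of these genes.

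All 8 neural progenitor markers were called higher in NPs than in ESCs, and all 8 pluripotency markers were called lower. Nes, an intermediate filament of neural progenitors and the most abundant of the former, was at 93.5, 58.2 and 71.0 RPKM in NPs and at 4.37, 4.12 and 3.56 RPKM in ESCs. Pou5f1, the core pluripotency factor, was at 388, 415 and 376 RPKM in ESCs, at 335, 343 and 209 RPKM in TET TKO ESCs, and at 1.09 ± 0.697 RPKM (SD, n = 3) in NPs. ESCs and TET TKO ESCs were thus high in the pluripotency factor, NPs were low in it and high in the progenitor marker, and the groups did not overlap in either comparison with NPs.

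Rest itself (ENSMUSG00000029249, chromosome 5, 77265491 to 77286432) was at 72.6, 73.7 and 69.9 RPKM in ESCs and at 9.31, 10.8 and 8.21 RPKM in NPs. Every NP library lay below every ESC library, and the fall passed the test with a log2 fold change of -2.94 ± 0.12 (SE; adjusted p = 8.00e-07). In TET TKO ESCs Rest was at 79.9, 91.6 and 72.0 RPKM, a range that overlapped that of ESCs. Srrm4, the neuronal splicing factor that acts on Rest transcripts, was at 0.395, 0.280 and 0.473 RPKM in ESCs and at 10.7, 4.02 and 8.01 RPKM in NPs, with no overlap. It rose by 4.31 ± 0.40 on the log2 scale (adjusted p = 3.25e-05).

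**Figure D1:**
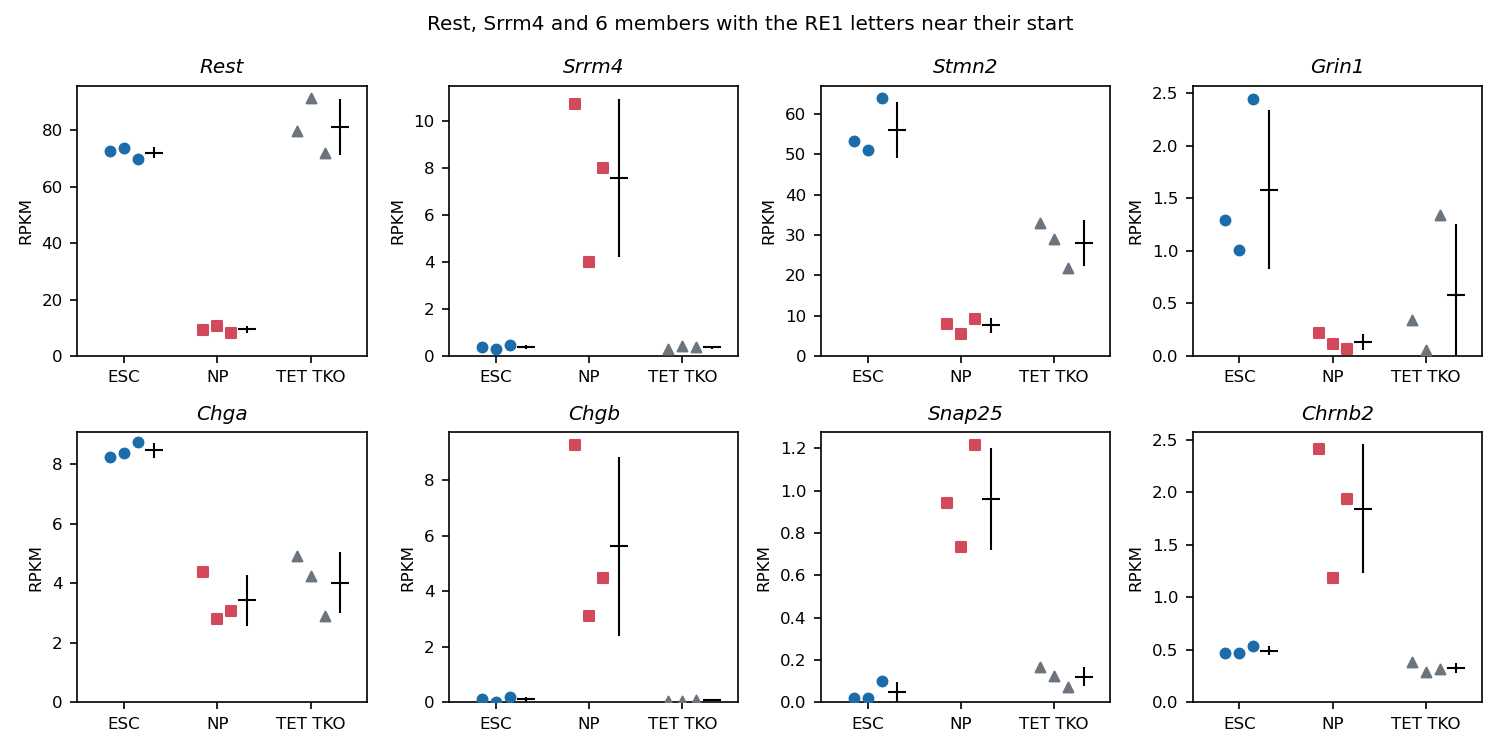
RPKM of Rest, Srrm4 and 6 members with the exact RE1 letters in the 3 libraries of ESCs (circles), NPs (squares) and TET TKO ESCs (triangles), with the mean and SD beside them in black. Rest was low in NPs and Srrm4 high, while Chgb, Snap25 and Chrnb2 were highest in NPs and Stmn2, Grin1 and Chga were highest in ESCs.

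The comparison of NPs with ESCs asks whether the members rose as Rest fell. A gene is called where its adjusted p in edgeR's quasi-likelihood test is under 0.001 and its fold change is at least 3. Of the 36 members, 15 were called higher in NPs and 2 lower. Without ESC replicate 1, 9 were called higher, and without ESC replicate 3, NP replicate 2 or NP replicate 3, 1 was called lower. Among all 15197 genes tested, 12.4% were called higher and 9.98% lower. A further 16 members were tested and not called, and Bdnf, Gria2 and Scg2 were not tested, since they reached 1 RPKM in no library of either group. The filter requires 1 RPKM in at least 1 library, and 10 members (Chgb, Chrnb2, Cplx2, Dcx, Elavl4, Scg3, Snap25, Syp, Syt1 and Syt4) reached it in NPs alone. These 10 were thus tested only through 1 or more NP libraries that lay above every ESC library. Grin1 and Scn3a were tested only through 1 or more ESC libraries that lay above every NP library. All of the 10 but Syt4 were among the 15 members called higher, and Grin1 was among the 2 called lower. The median log2 fold change was 1.51 over the 33 tested members and 1.57 over all 36 in a fit without the filter, against 0.04 and -0.05 over all genes of the same fits. In these bulk libraries, fewer cells that express a gene and less RNA per cell cannot be told apart.

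With an adjusted p under 0.05 and no limit on the fold change, 23 members were higher in NPs and 5 lower, against 32.9% and 31.2% of all tested genes. Compared by library, 25 of the 36 members were higher in every NP library than in any ESC library, 5 were lower in every one, and 6 overlapped. The same held for 23.3% (higher) and 25.4% (lower) of the 31654 genes with a count in either group. Members at or above 1 RPKM on average numbered 21 in ESCs and 28 in NPs, so most of them were already above this level in ESCs. Summed over the 36 members, the level was 224, 222 and 252 RPKM in ESCs and 541, 286 and 473 RPKM in NPs. The 3 NP libraries all lay above the ESC libraries, the second of them by the smallest margin.

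**Figure D2:**
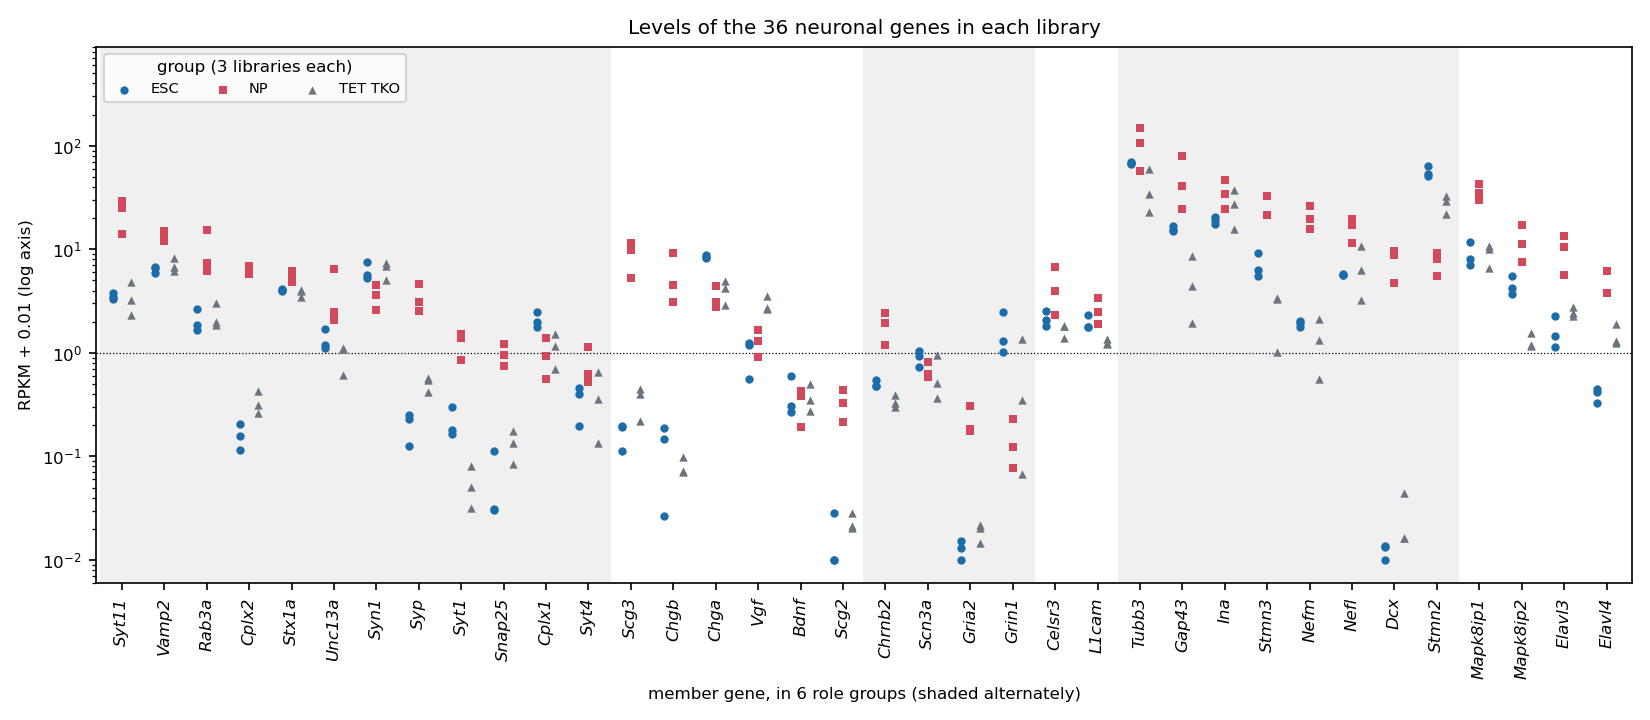
RPKM of each of the 36 members in the 9 libraries, on a log axis after adding 0.01, ordered within the 6 role groups by the mean in NPs. The dotted line marks 1 RPKM. Dcx, Scg3, Chgb, Cplx2 and Syp, all under 0.2 RPKM on average in ESCs, lay above 2 RPKM in every NP library, while Stmn2 lay above 50 RPKM in ESCs and under 10 RPKM in NPs.

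Of the 12 genes of vesicle release, 6 were called higher in NPs, and the other 6 were tested and not called. Syt11, a synaptotagmin that does not bind calcium and the most abundant of them in NPs, was at 3.77, 3.47 and 3.28 RPKM in ESCs and at 29.5, 13.9 and 25.0 RPKM in NPs. All NP libraries were high and the groups did not overlap, with a rise of 2.70 ± 0.27 on the log2 scale (adjusted p = 5.05e-05). The most abundant in ESCs was Vamp2, the SNARE protein of the synaptic vesicle, at 5.92, 6.77 and 6.62 RPKM, against 15.1, 13.2 and 12.0 RPKM in NPs. The groups did not overlap, but its log2 fold change of 1.06 ± 0.14 was under the limit of 3-fold (adjusted p = 2.12e-04).

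The largest change among these genes was that of Cplx2, a complexin that binds the assembled SNARE complex, with 0.105, 0.195 and 0.149 RPKM in ESCs and 6.93, 5.79 and 6.36 RPKM in NPs. It was near 0 in ESCs and high in all NP libraries, a log2 fold change of 5.40 ± 0.25. The vesicle protein Syp, which shares 16.8% of its exon bases with Gm14703 and so has uncertain counts, rose by 4.14 ± 0.36 on the log2 scale, the SNARE protein Snap25 by 4.28 ± 0.58, the calcium sensor Syt1 by 2.61 ± 0.36 and the vesicle GTPase Rab3a by 2.21 ± 0.38. Snap25 and Syt1 remained low in NPs, at 0.962 ± 0.241 and 1.25 ± 0.355 RPKM (SD, n = 3). Their calls were lost without ESC replicate 1 (log2 fold changes 3.94 and 2.50), ESC replicate 2 (3.92 and 2.45) or NP replicate 1 (4.29 and 2.53), and that of Syt1 also without NP replicate 3 (2.45), where Snap25 no longer reached the filter. Without ESC replicate 3, Snap25 was at 5.50. The call of Rab3a was lost with any of the 6 libraries left out, at log2 fold changes of 1.71 to 2.45.

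Among the vesicle genes that were not called, Stx1a, the SNARE partner of Snap25 in the plasma membrane, was at 4.04 ± 0.0772 RPKM in ESCs and 5.44 ± 0.674 RPKM in NPs, a log2 fold change of 0.43 ± 0.18 (adjusted p = 0.0629). Unc13a, which primes vesicles, and Syt4, with 14.7% of its exon bases shared with Gm26658, had log2 fold changes of 1.45 ± 0.42 and 1.15 ± 0.45 (adjusted p = 0.0147 and 0.0498). Without NP replicate 1, Unc13a was at 0.77. Cplx1, the paralog of Cplx2, differed in the other direction, with 1.97, 1.76 and 2.47 RPKM in ESCs and 0.922, 0.545 and 1.38 RPKM in NPs (log2 fold change -1.12 ± 0.38, adjusted p = 0.0290). Every NP library was below every ESC library for Cplx1, as it was for Syn1, the protein that tethers vesicles to the cytoskeleton, at 5.65, 5.22 and 7.57 RPKM in ESCs and 4.47, 2.57 and 3.64 RPKM in NPs (log2 fold change -0.79 ± 0.25, adjusted p = 0.0229).

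The 6 genes of dense core vesicles and neurotrophin included 2 that were called higher, 2 that were tested and not called, and 2 that were not tested. Scg3, a granin that sorts cargo into dense core vesicles, was at 0.189, 0.184 and 0.104 RPKM in ESCs and at 11.4, 5.29 and 9.77 RPKM in NPs. The granin Chgb was at 0.137, 0.0167 and 0.178 RPKM in ESCs and at 9.25, 3.09 and 4.49 RPKM in NPs. Both genes were near 0 in every ESC library and high in every NP library, with log2 fold changes of 5.80 ± 0.41 and 5.62 ± 0.66 (adjusted p = 8.85e-06 and 1.20e-04).

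Chga, a granin that like Chgb carries the exact letters of RE1 in an intron, differed in the other direction. It was the most abundant of this group in ESCs, at 8.25, 8.37 and 8.75 RPKM, and was at 4.39, 2.79 and 3.08 RPKM in NPs. The NP libraries were all lower, and the log2 fold change of -1.31 ± 0.21 passed the limit on p (adjusted p = 6.50e-04) but not that on the fold. Vgf, a secreted neuropeptide precursor, overlapped between the groups, at 1.17, 1.23 and 0.547 RPKM in ESCs and 1.28, 1.66 and 0.900 RPKM in NPs. The granin Scg2 had 1 count over the ESC libraries and 55 over the NP libraries, and was called higher without the filter (log2 fold change 5.30 ± 0.87, adjusted p = 8.83e-06). The neurotrophin Bdnf, with 14.4% of its exon bases shared with Gm45346, overlapped at 0.378 ± 0.178 and 0.323 ± 0.125 RPKM.

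The 4 receptors and channels were under 3 RPKM in every library. Chrnb2, a subunit of the neuronal acetylcholine receptor and the most abundant of them in NPs, was at 0.471, 0.470 and 0.539 RPKM in ESCs and at 2.41, 1.19 and 1.94 RPKM in NPs. It was called higher without overlap (log2 fold change 1.90 ± 0.29, adjusted p = 5.21e-04), and the call was lost without any 1 of the 3 ESC libraries or without NP replicate 1 or 3, at log2 fold changes of 1.66 to 1.97. Grin1, the obligate subunit of NMDA receptors (ENSMUSG00000026959), was at 1.30, 1.01 and 2.44 RPKM in ESCs and at 0.218, 0.115 and 0.0667 RPKM in NPs. Every NP library was below every ESC library, and the gene was called lower with a log2 fold change of -3.58 ± 0.49 (adjusted p = 2.97e-04). That call was lost without ESC replicate 3 (-3.13), NP replicate 2 (-3.49) or NP replicate 3 (-3.26), and with all 3 cell types in the fit (-3.58).

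For Grin1, 13.5% of the exon bases are shared with the overlapping gene Grin1os, and for Chrnb2 16.3% with Adar, so that their counts are uncertain. Gria2, an AMPA receptor subunit, was not tested, with 3 counts over the ESC libraries and 228 over the NP libraries. Without the filter it was called higher (log2 fold change 6.07 ± 0.62, adjusted p = 1.89e-09). The sodium channel Scn3a overlapped, at 0.892 ± 0.156 RPKM in ESCs and 0.664 ± 0.125 RPKM in NPs.

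Neither of the 2 adhesion genes was called in NPs. Celsr3, a cadherin of axon guidance, was at 2.06, 1.82 and 2.51 RPKM in ESCs and at 6.79, 2.31 and 3.95 RPKM in NPs. NP replicate 2 lay within the range of ESCs, and the log2 fold change was 1.03 ± 0.35 (adjusted p = 0.0299). L1cam, the adhesion molecule of growing axons, was at 1.94 ± 0.331 RPKM in ESCs and 2.58 ± 0.727 RPKM in NPs, with overlap (log2 fold change 0.41 ± 0.24).

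The 8 genes of the cytoskeleton and growth cone held the most abundant members and the largest rise, with 3 called higher and 1 lower. Dcx, the microtubule protein of migrating neurons (ENSMUSG00000031285, chromosome X, 143855842 to 143933311), was at 0.00372, 0 and 0.00322 RPKM in ESCs and at 8.74, 4.69 and 9.59 RPKM in NPs. This came from 2 counts over the ESC libraries and 6611 over the NP libraries, a ratio of 3254 after scaling (95% interval 901 to 26879, exact, for counting error only). Dcx was thus nearly silent in ESCs and high in all NP libraries (fitted log2 fold change 11.44 ± 0.54, adjusted p = 1.24e-06). Nefm, the medium neurofilament subunit, rose by 3.42 ± 0.21 on the log2 scale and Stmn3, a stathmin, by 2.06 ± 0.26. The call of Stmn3 was lost without ESC replicate 1 (1.99) or 3 (1.91) and with all 3 cell types in the fit (2.05).

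Stmn2, the stathmin of growth cones that is also known as SCG10 and carries a classical RE1 (ENSMUSG00000027500, chromosome 3, 8509360 to 8561606), went the other way. It was at 53.3, 51.0 and 64.0 RPKM in ESCs and at 8.03, 5.54 and 9.17 RPKM in NPs. Of these 2 groups, Stmn2 was thus higher in the one with more Rest, without overlap, and fell by 2.89 on the log2 scale (SE 0.21, adjusted p = 9.43e-06). It was the second most abundant of the 36 members in ESCs, after Tubb3. This call was kept with each other normalization, tool, filter and fit that was run and with any 1 library left out.

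Tubb3, the neuronal beta tubulin, was the most abundant member in every group, at 67.3, 67.7 and 69.2 RPKM in ESCs and at 149, 56.8 and 107 RPKM in NPs. NP replicate 2 lay below ESCs and the other 2 above, so that the groups overlapped (log2 fold change 0.62 ± 0.30, adjusted p = 0.0991). Gap43, a growth cone protein, was at 14.9, 15.3 and 16.7 RPKM in ESCs and at 40.5, 24.7 and 79.7 RPKM in NPs. All NP libraries were higher, but the spread among them left the adjusted p at 0.00533 (log2 fold change 1.64 ± 0.38). Without NP replicate 2 it was called, with a log2 fold change of 1.94, as were Nefl (1.70) and Mapk8ip2 (1.67). Without NP replicate 3 the log2 fold change of Gap43 was 1.06, and the gene was not called.

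The neurofilament genes Nefl and Ina were higher in every NP library with log2 fold changes of 1.51 ± 0.21 and 0.88 ± 0.22 and were not called. Nefl and Nefm overlap each other in 32.8% and 19.2% of their exon bases, and Ina shares 14.1% with Nt5c2, so that reads there could not be assigned to 1 gene.

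All 4 genes of the last group, scaffold and RNA-binding proteins, were higher in every NP library, and 3 of them were called. Mapk8ip1, a scaffold of the JNK pathway and the most abundant of them in ESCs and NPs, was at 8.05, 6.98 and 11.7 RPKM in ESCs and at 43.1, 29.7 and 35.1 RPKM in NPs. The groups were well apart (log2 fold change 2.01 ± 0.22, adjusted p = 8.57e-05). The neuronal RNA-binding protein Elavl4 was at 0.436, 0.314 and 0.408 RPKM in ESCs and at 6.21, 3.79 and 6.22 RPKM in NPs, a rise of 3.81 ± 0.28 on the log2 scale. Its paralog Elavl3 rose by 2.62 ± 0.37, a call that was lost without ESC replicate 1 (2.55) or 2 (2.42) or NP replicate 1 (2.57) or 3 (2.33). Mapk8ip2, the paralog of Mapk8ip1, was not called (log2 fold change 1.43 ± 0.29, adjusted p = 0.00274).

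**Figure D3:**
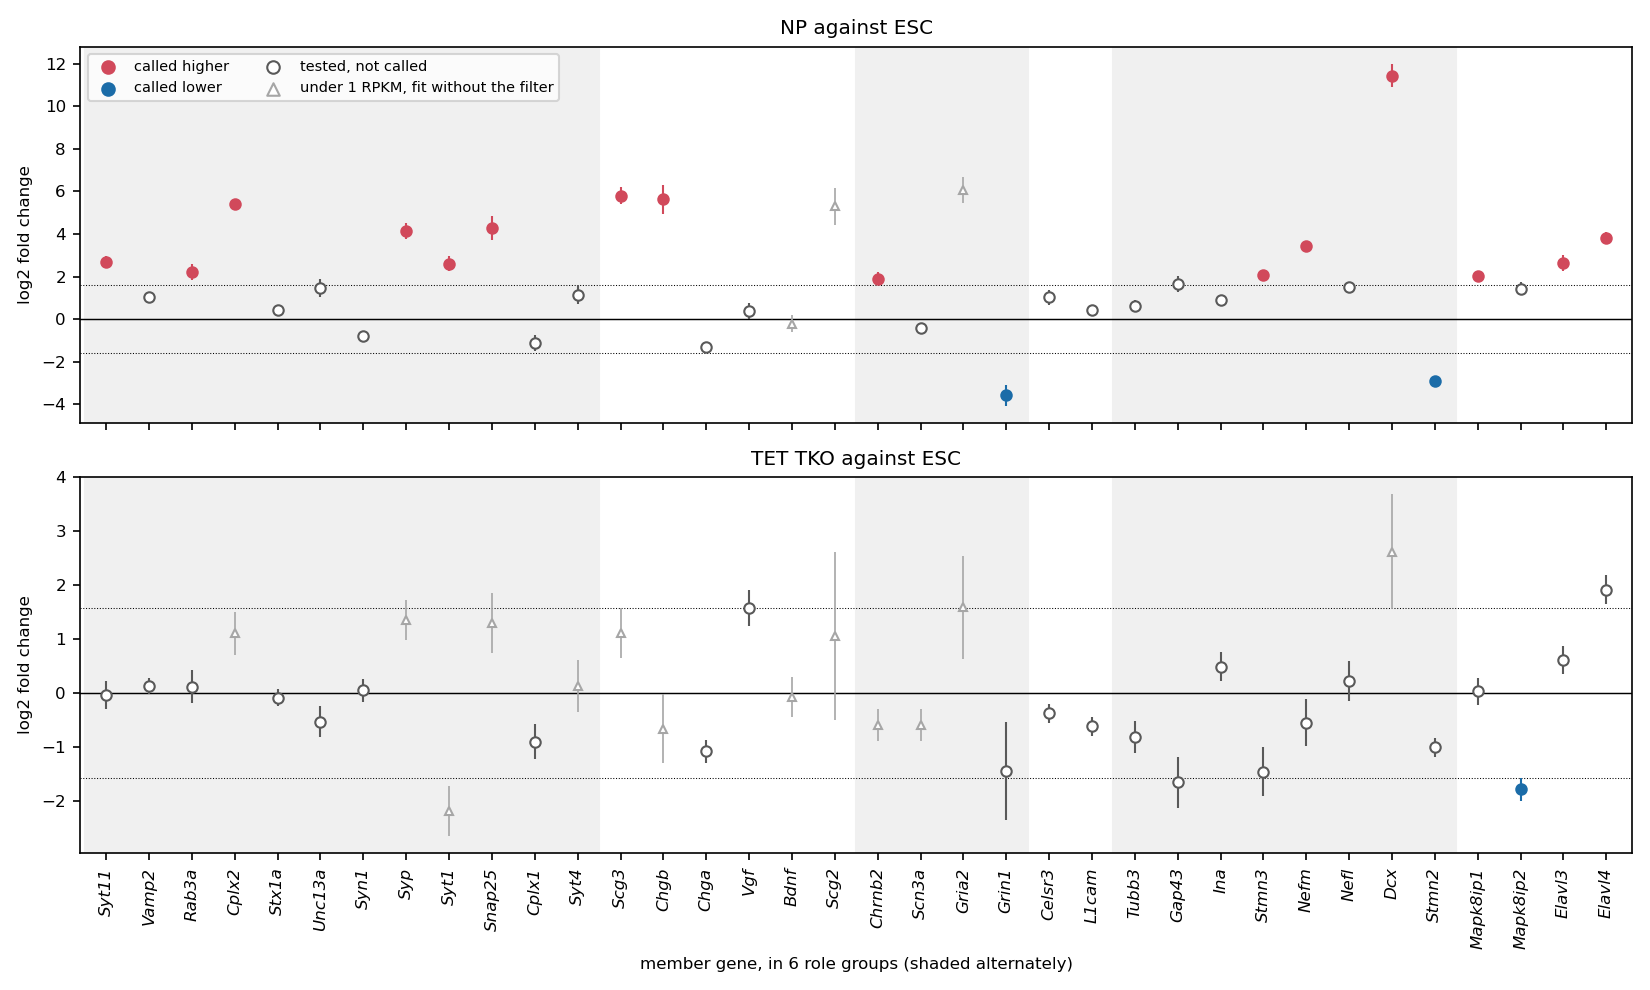
Log2 fold change of each member in NPs (top) and TET TKO ESCs (bottom) against ESCs, with bars for 1 SE. Filled points were called, open circles were tested and not called, grey triangles are members that did not pass the filter, from a fit without it, and dotted lines mark a 3-fold change. In NPs 15 members were called higher and Grin1 and Stmn2 lower, while in TET TKO ESCs Mapk8ip2 was the only member called.

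The NP libraries differed among themselves in the same way for most members. NP replicate 2 was the lowest of the 3 for 29 of the 36 members and for 25 of the 28 with at least 1 RPKM on average in NPs, against 30.8% of the 12412 genes at that level. It also had the highest sum over the 8 pluripotency markers, 29.4 RPKM against 12.2 and 8.89 RPKM in NP replicates 1 and 3 and 2385 to 2473 RPKM in ESCs, and the lowest over the neural progenitor markers, 178 RPKM against 319 and 237 RPKM. Without it, 17 members were called higher and 1 lower. The part of these differences in the levels of the members was not tested.

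Other neuronal genes and regulators were looked up in the same fit. Of 38 other neuronal genes, 11 were called higher, 2 lower, 13 were tested and not called, and 12 were not tested. Bex1, an adaptor protein and the most abundant of them, was not called, at 173 ± 14.6 RPKM in ESCs and 112 ± 13.2 RPKM in NPs, while Amph and the calcium channel Cacna1a were the 2 called lower. Of 12 transcription factors of neuronal fate, 8 were called higher. The proneural factor Neurog1, the most abundant of these in NPs, was at 0.623, 0.800 and 0.760 RPKM in ESCs and at 77.8, 31.8 and 34.2 RPKM in NPs, with no overlap.

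Among genes of the REST machinery, Rest was called lower, and Srrm4 and the phosphatase Ctdspl were called higher. The corepressor Rcor2, the most abundant of them, overlapped between the groups at 127 ± 5.79 RPKM in ESCs and 106 ± 44.9 RPKM in NPs. The corepressor Rcor1 was at 9.49 ± 0.461 RPKM in ESCs and 15.4 ± 0.404 RPKM in NPs (log2 fold change 0.70 ± 0.10, adjusted p = 4.57e-04), under the limit on the fold. Sin3a was at 68.0 ± 2.94 and 35.1 ± 2.48 RPKM (log2 fold change -0.96 ± 0.10, adjusted p = 7.48e-05), also under it.

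Markers of other cell types moved between ESCs and NPs as well. Of 6 endoderm markers, 4 were called higher, and their summed level was 1.63, 1.94 and 1.07 RPKM in ESCs and 19.6, 21.2 and 24.7 RPKM in NPs. The most abundant was Foxa2, at 10.7, 8.42 and 11.1 RPKM in NPs, a factor of endoderm that the floor plate of the neural tube also expresses. Of 9 glial markers, Olig1, Olig2 and Mbp were called higher and 5 were not tested. Gfap, Aldh1l1 and Mog were lower in every NP library, and the other 3 overlapped. The sum over the 9 was 3.61, 3.64 and 4.08 RPKM in ESCs and 15.4, 10.8 and 11.9 RPKM in NPs, with Olig2, which also marks motor neuron progenitors, the most abundant at 4.75 ± 2.26 RPKM in NPs. The astrocyte markers Gfap and Aqp4 were under 0.3 RPKM in every ESC and NP library. Aldh1l1, also an astrocyte marker, was at 0.759 ± 0.00197 RPKM in ESCs and 0.0599 ± 0.0433 RPKM in NPs.

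Of 6 mesoderm and endothelial markers, Pecam1, which ESCs also express, was called lower in NPs, T was tested and not called, and the other 4 were not tested and overlapped. Pecam1 made up 24.4, 23.0 and 36.5 RPKM of the sums of 26.6, 25.3 and 38.3 RPKM in ESCs, and the sums were 2.39, 3.28 and 1.30 RPKM in NPs. Of the 7 endocrine markers, whose cells share the granins, only Pomc and Th were tested in NPs. Neither was called by edgeR or DESeq2 or had an unadjusted p under 0.05. In the fit without the filter, Pcsk1 was lower with a log2 fold change of -2.12 ± 0.40 (adjusted p = 6.46e-05). Dbh was higher in that fit (4.67 ± 1.83, adjusted p = 0.044), from only 7, 0 and 2 counts in NP replicates 1, 2 and 3. Pomc was the most abundant at 1.32, 1.28 and 0.688 RPKM in NPs, and Ins1, Ins2, Gcg and Dbh had no count in ESCs. The sum over this list was 2.01, 1.91 and 1.94 RPKM in ESCs and 2.59, 1.92 and 1.08 RPKM in NPs. The part of other cell types in the levels of the members was not tested.

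**Figure D4:**
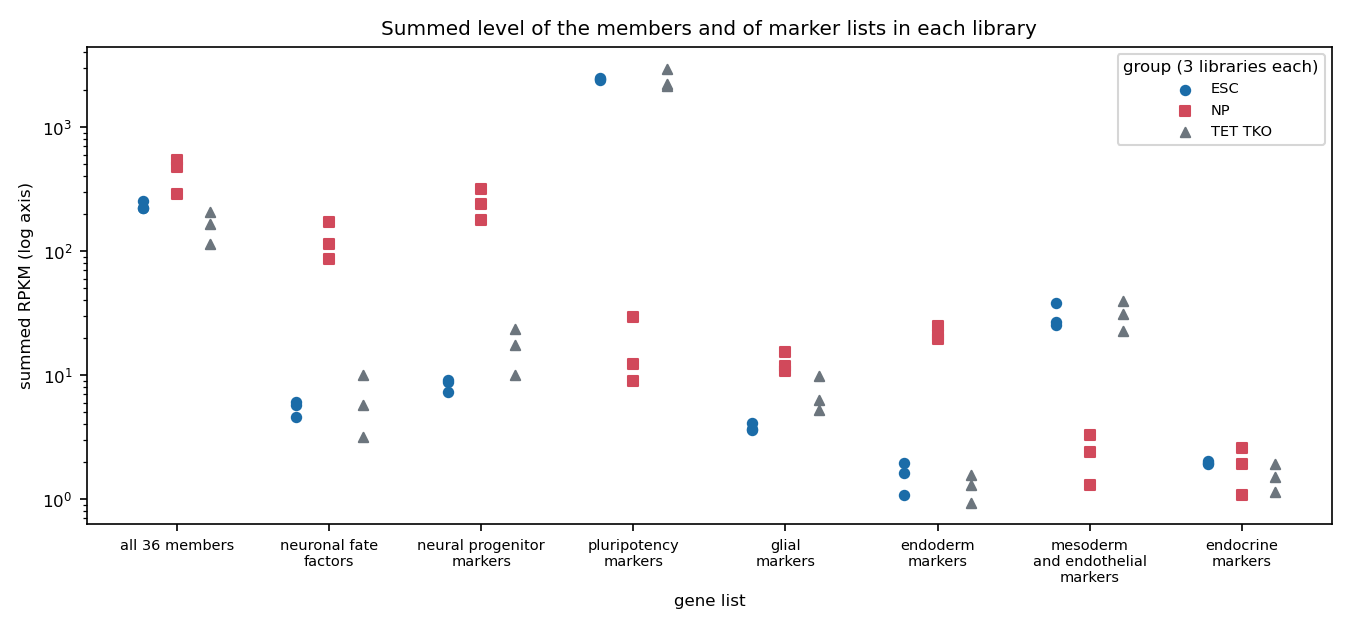
Summed RPKM of the 36 members and of 7 other lists in each of the 9 libraries, on a log axis. Neuronal fate factors and progenitor markers were at 86.4 to 319 RPKM in NPs and under 25 RPKM elsewhere, pluripotency markers were above 2000 RPKM in both kinds of ESCs, and endocrine markers overlapped between the groups.

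The comparison of TET TKO ESCs with ESCs asks whether the members changed with the loss of the TET enzymes while Rest stayed high. None of the 36 members was called higher and 1, Mapk8ip2, was called lower, against 1.1% and 1.21% of the 13939 genes tested. These shares come from 322 called genes, against 50, 59 and 74 without ESC replicates 1, 2 and 3, 126 and 190 without TET TKO replicates 1 and 2, and 910 with DESeq2. Of the members, 22 were tested and not called and 13 were not tested. Mapk8ip2 (ENSMUSG00000022619, chromosome 15, 89453913 to 89464468) was at 3.69, 4.19 and 5.48 RPKM in ESCs and at 1.16, 1.56 and 1.18 RPKM in TET TKO ESCs. Every TET TKO library was low, without overlap, and the gene fell by 1.79 on the log2 scale (SE 0.21, adjusted p = 9.67e-04). The call was lost with any of the 6 libraries left out, at log2 fold changes of -1.93 to -1.62, and with all 3 cell types in the fit (-1.78).

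By unadjusted p under 0.05 in edgeR, 2 members were higher and 8 lower, and DESeq2 called Elavl4 higher and Mapk8ip2 and Gap43 lower. With an adjusted p under 0.05 and no limit on the fold, 2 members were higher (Elavl4 and Vgf) and 6 lower, against 22.8% and 12.7% of all tested genes. In RPKM, 7 of the 36 members were higher in every TET TKO library than in any ESC library and 11 were lower in every one, against 18.9% and 14.1% of the 33796 genes with a count, and 18 overlapped. The median log2 fold change was -0.38 over the 23 tested members and -0.05 over all 36 without the filter, against 0.12 over all genes in both fits. With library sizes alone the median of all tested genes moved by -0.17 to -0.05, and the calls were 99 higher and 191 lower in place of 153 and 169. Depth was about 4 times that of ESCs in each TET TKO library, and thinning to the depth of ESCs left 0 members called higher and 1 lower.

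Among the genes of vesicle release, 7 of 12 were tested and none was called by edgeR or DESeq2; 0 were higher and 1, Cplx1, lower by unadjusted p under 0.05. Vamp2 was again the most abundant, at 6.78, 6.22 and 8.26 RPKM in TET TKO ESCs, which overlapped ESCs (log2 fold change 0.13 ± 0.15, or -0.03 with library sizes alone). Syt11 was at 3.44 ± 1.26 RPKM, also with overlap. Cplx2 and Syp were under 1 RPKM but higher in every TET TKO library, at 0.324 ± 0.0822 and 0.501 ± 0.0828 RPKM in TET TKO ESCs against 0.149 ± 0.0451 and 0.193 ± 0.0665 RPKM in ESCs. In the fit without the filter Syp had a log2 fold change of 1.36 ± 0.37 (adjusted p = 0.0105), and Syt1, lower in every TET TKO library, -2.19 ± 0.46 (adjusted p = 0.00115).

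In the dense core vesicle group, Chga was at 4.92, 4.25 and 2.90 RPKM in TET TKO ESCs, below every ESC library, with a log2 fold change of -1.08 ± 0.21 (adjusted p = 0.00668). Vgf was at 2.62, 3.55 and 2.68 RPKM in TET TKO ESCs. All TET TKO libraries were higher, a log2 fold change of 1.58 ± 0.33 (adjusted p = 0.00899) that was not called. Scg3 and Chgb, which rose in NPs, were at 0.344 ± 0.120 and 0.0706 ± 0.0158 RPKM in TET TKO ESCs and were not tested. Scg3 was higher in every TET TKO library than in any ESC library, whereas Chgb overlapped. In the fit without the filter Scg3 had a log2 fold change of 1.11 ± 0.46 (adjusted p = 0.105).

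Of the receptors, Grin1 varied within the group, at 0.344, 0.0578 and 1.35 RPKM in TET TKO ESCs, and Chrnb2 was at 0.382, 0.289 and 0.315 RPKM. Grin1 overlapped ESCs through TET TKO replicate 3, whereas Chrnb2 lay below every ESC library and was not tested. The adhesion genes Celsr3 and L1cam, at 1.79, 1.80 and 1.38 RPKM and at 1.28 ± 0.0769 RPKM, were below every ESC library and not called.

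Within the cytoskeletal group, Stmn2 was at 33.0, 29.1 and 21.9 RPKM in TET TKO ESCs, below every ESC library and above every NP library (log2 fold change -1.01 ± 0.17, adjusted p = 0.00357). Tubb3 was at 34.0, 59.6 and 22.8 RPKM, Gap43 at 4.44, 8.64 and 1.93 RPKM, and Stmn3 at 3.38, 3.28 and 1.01 RPKM. TET TKO replicate 3 was the lowest of its group for these 4 genes, and all 3 libraries lay below ESCs for each of them. None of the 4 was called by edgeR, with adjusted p of 0.0685 for Tubb3, 0.0278 for Gap43 and 0.0402 for Stmn3. Gap43 was called lower by DESeq2 and without the filter (-1.66, adjusted p = 6.88e-04). Dcx had 6, 31 and 7 counts in TET TKO replicates 1, 2 and 3, so most of its 44 counts came from replicate 2. Against 2 counts over the ESC libraries, Dcx had a ratio of 6.34 after scaling for depth (95% interval 1.66 to 54.0, exact, for counting error only). It was higher in every TET TKO library, with a log2 fold change of 2.62 in the fit without the filter (adjusted p = 0.0979).

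Of the scaffold and RNA-binding genes, Mapk8ip1 was at 10.8, 10.1 and 6.55 RPKM in TET TKO ESCs and overlapped ESCs. Elavl4 was at 1.30, 1.23 and 1.88 RPKM in TET TKO ESCs, above every ESC library and below every NP library. Its log2 fold change of 1.92 ± 0.27 missed the limit on p (adjusted p = 0.00192). Elavl4 reached 1 RPKM in TET TKO ESCs alone, so it was tested only through TET TKO libraries that lay above every ESC library. It was called with DESeq2 (1.80), without the filter (1.92), with all 3 cell types in the fit (1.93) and with the replicate number as a block (1.90).

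TET TKO replicate 3 was the lowest of its group for 19 of the 36 members and for 13 of the 21 with at least 1 RPKM on average in TET TKO ESCs, against 37.9% of the 12307 genes at that level. Of the marker lists in TET TKO ESCs, Zfp42 was the only pluripotency marker called, at 42.7, 46.0 and 63.2 RPKM against 309, 298 and 306 RPKM in ESCs. The 8 pluripotency markers summed to 2242, 2131 and 2955 RPKM in TET TKO ESCs, with Dppa5a the most abundant at 1508 ± 344 RPKM, against 956 ± 25.7 RPKM in ESCs. Of these markers 5 were lower in every TET TKO library, and 4 (Zfp42, Esrrb, Klf4 and Tfcp2l1) were lower at an adjusted p under 0.05. The 8 neural progenitor markers summed to 17.0 ± 6.73 RPKM, with Nes the most abundant at 9.72, 15.4 and 7.83 RPKM. Of these markers 4 were tested and none was called by edgeR or DESeq2. By unadjusted p under 0.05, 2 were higher and 0 lower, and both also had an adjusted p under 0.05 in edgeR. They were Nes (log2 fold change 1.44 ± 0.24, adjusted p = 0.00385), higher in every TET TKO library, and Sox1 (1.49 ± 0.48, adjusted p = 0.0446), which overlapped. The 9 glial markers summed to 6.24, 5.18 and 9.90 RPKM, above every ESC library, with Mbp the most abundant. Mbp had a log2 fold change of 2.56 ± 0.49 (adjusted p = 0.00634) and was called by DESeq2 but not by edgeR. The part of these markers in the values of the members was not tested.

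Of the other neuronal genes 17 of 38 were tested in TET TKO ESCs, and of the fate factors 2 of 12, and edgeR called none of these. By unadjusted p under 0.05, 1 and 0 of them were higher and 6 and 1 lower, and DESeq2 called 0 higher and 3 and 0 lower. Among those not tested, Atp2b2 and Onecut2 were lower in every TET TKO library, with log2 fold changes of -2.72 ± 0.40 and -2.11 ± 0.36 in the fit without the filter (adjusted p = 2.53e-05 and 1.37e-04). Both comparisons share the 3 ESC libraries, so their values stand side by side and are not independent of each other.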

How the data were processed

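The authors trimmed, aligned and counted the reads and deposited raw counts per gene; the submitters' processing notes name Trimmomatic 0.38 and STAR 2.6.1b, and the file headers featureCounts 1.6.2 with Ensembl 89 models on GRCm38, counting exons without strand, although a stranded kit was used, so reads of overlapping antisense genes were not separated. Libraries were scaled by TMM, and each group was compared with ESCs in edgeR 4.0.16 (R 4.3.3) with its quasi-likelihood F-test, and p was adjusted after Benjamini and Hochberg over all genes with at least 1 RPKM in at least 1 library. SE is the log2 fold change divided by the square root of F. RPKM used TMM over 9 libraries and the deposited gene lengths. DESeq2 1.42.0 was an alternative. The edgeR step was tested on simulated data. Sequences came from the RefSeq copy of GRCm38, and the place of a site from GENCODE models of that build. Python 3.11.15, scipy 1.17.1, pandas 2.3.3 and matplotlib 3.10.9 were used.

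Written out per library were the members with the 3 largest rises and falls among those called, every member called lower, and in each role group the most abundant in NPs and in ESCs; Cplx2, Cplx1, Syn1, Gap43, Vgf, Stmn3 and Elavl4 were added after their values were seen. The members and lists were chosen with earlier results of these data known. Alternatives were library sizes alone, DESeq2, no filter, at least 10 counts, an adjusted p under 0.05 without a fold limit, a fit of all 3 groups, blocking on replicate number, each library left out and, for TET TKO, thinned counts. Replicates differed beyond sampling noise, and none was merged. Methylation files were not used here.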

Additional observations from a re-analysis of the deposited data

How the results depend on the processing

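In NPs, the 17 called members were all kept with library sizes alone, DESeq2, either other filter and the replicate block, Gap43, Gria2 and Scg2 were gained without the filter (18 higher) and Gria2 and Scg2 with at least 10 counts (17 higher), and Grin1 and Stmn3 were lost with all 3 groups in the fit, which left 1 member lower. All genes called numbered 3408, against 5281 without the filter and 9734 with an adjusted p under 0.05 and no fold limit, where 23 members were higher and 5 lower. With 1 library left out, 9 to 17 members were higher and 1 to 2 lower; fewer samples were then in the fit. In TET TKO ESCs, 322 genes were called, against 910 with DESeq2, 1263 without the filter, 4953 with an adjusted p under 0.05, 674 with the replicate block and 50 to 329 with 1 library left out (50, 59 and 74 without ESC replicates 1, 2 and 3, 126 and 190 without TET TKO replicates 1 and 2). Members called higher were 1 (Elavl4) with DESeq2, without the filter, with all 3 groups in the fit and with the block, and 2 at adjusted p under 0.05. Members called lower were 2 with DESeq2 and without the filter, 6 at adjusted p under 0.05, and 0 with all 3 groups in the fit or any library left out. The median of tested members was -0.61 with library sizes alone, -0.05 without the filter and -0.09 with at least 10 counts, which test more members of low level. Members near 0 in TET TKO ESCs changed sign without being called. With library sizes alone the log2 fold changes were -0.03 for Vamp2, -0.04 for Rab3a, -0.11 for Syn1 and -0.14 for Mapk8ip1. With DESeq2 they were -0.06 for Syn1 and -0.08 for Mapk8ip1, and with thinned counts -0.003 for Syn1 and -0.06 for Mapk8ip1. With 1 library left out they were -0.35 to 0.18 for Syt11, -0.13 to 0.34 for Rab3a, -0.06 to 0.22 for Syn1, -0.26 to 0.56 for Nefl and -0.13 to 0.26 for Mapk8ip1. The cause of these changes was not tested. Deviations of same-numbered replicates of NPs and ESCs correlated at -0.0555, 0.00879 and -0.123, against -0.0819 to 0.109 for differently numbered ones, so no pairing was seen. For TET TKO ESCs they correlated at -0.0801, 0.306 and 0.214, against -0.393 to 0.19. The values 0.306 and 0.214 lay above those of all differently numbered replicates, so pairing there was not settled. The replicate block gave 3415 calls in NPs. Depth limits the members under 1 RPKM, such as Gria2 and Scg2 with 3 and 1 counts in ESCs.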
